A study of Homo sapiens with 12 samples.

Results

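Differences between DU145 cells with GALNT7 overexpression and their controls are described here through metabolism, secretion, adhesion and growth state. The cell cycle and interferon genes are left aside. DU145 is an established human prostate cancer cell line. The 3 GALNT7 OE libraries came from stable cells made with a lentivirus that carries GALNT7, and the 3 OE control libraries from DU145 cells carrying a control lentivirus, so that both groups were transduced. These are 6 of the 12 samples of the series, and each group is labelled as 3 biological replicates. Neither the promoter of the GALNT7 lentivirus, nor whether the replicates of a group came from 1 transduced population, was given in the sources used here. If each group was 1 population, an effect of GALNT7 and other differences between the populations cannot be told apart. A gene was tested where its normalised counts averaged 5 or more across these libraries, which 18705 of 59424 did, and 35 lists of genes were read from that fit. The lists name 932 genes, of which 843 were tested, 83 fell under the minimum and 6 were not analysed here (SLC16A1, NDUFA10, RPS18, TNF, MIF and NEU1).

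GALNT7 belongs to the family of enzymes that begin mucin-type O-glycosylation, in which the sugar GalNAc is attached to serine or threonine residues of proteins passing through the Golgi. This modification is found on mucins, on many secreted proteins and on cell surface receptors. By the authors' account, GALNT7 acts only on proteins where other members of the family have already placed GalNAc. A cell that divides draws on synthesis of sterols, fatty acids, serine and nucleotides, while lysosomes, proteases, integrins and matrix proteins set how it takes up material and holds to its surroundings.

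The libraries were of like depth, with 21628718 to 23288926 reads on genes in the OE control and 21703978 to 24356910 in GALNT7 OE. Epithelial identity was visible in the keratins KRT8 (11105 to 13361 normalised counts over the 6 libraries), KRT18 and KRT7, whereas the epithelial factor GRHL2 had at most 31.5. KLK3, which encodes prostate-specific antigen, had 0, but NKX2-1 (2378 to 2777), which had been set down as absent from this line, was present. Among markers of other cells, PTPRC, found on blood cells, had at most 2.10 and the fibroblast gene LUM had 0 in every library.

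GALNT7 itself (ENSG00000109586, chromosome 4 of GRCh38 from 173168753 to 173323967, plus strand) was read before the lists, to check the libraries against their names. It had 1051, 928 and 913 in the OE control and 1988, 2221 and 2334 normalised counts in GALNT7 OE. Every GALNT7 OE library lay above every control, a 2.26-fold difference of the means. The log2 fold change was 1.18 (standard error 0.0863, limma adjusted p=7.99e-05), and an exact permutation test gave p=0.1, the smallest that 3 libraries against 3 allow. Reads from the introduced open reading frame and from the gene on chromosome 4 cannot be told apart in these values.

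Against this difference in 1 enzyme stood a wide change of the transcriptome. By limma on log2(normalised count + 1) at an adjusted p of 0.05, 43.5% of the genes tested were called, 22.9% higher and 20.5% lower. When the libraries were instead brought to a common 75th percentile, 41.6% of the calls were higher, compared with 52.8% here. Larger changes leaned downwards: 3.83% of genes were called and at least 1 log2 unit higher, and 7.69% called and at least 1 lower. The median log2 fold change of all genes was -0.01, and chromosome medians lay between -0.16 (chromosome 22) and 0.13 (chromosome 13). Because so many genes were called, the counts of each list stand against these percentages. No list was itself tested, and normalised counts show only each gene's share relative to the other genes of a library.

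**Figure D1:**
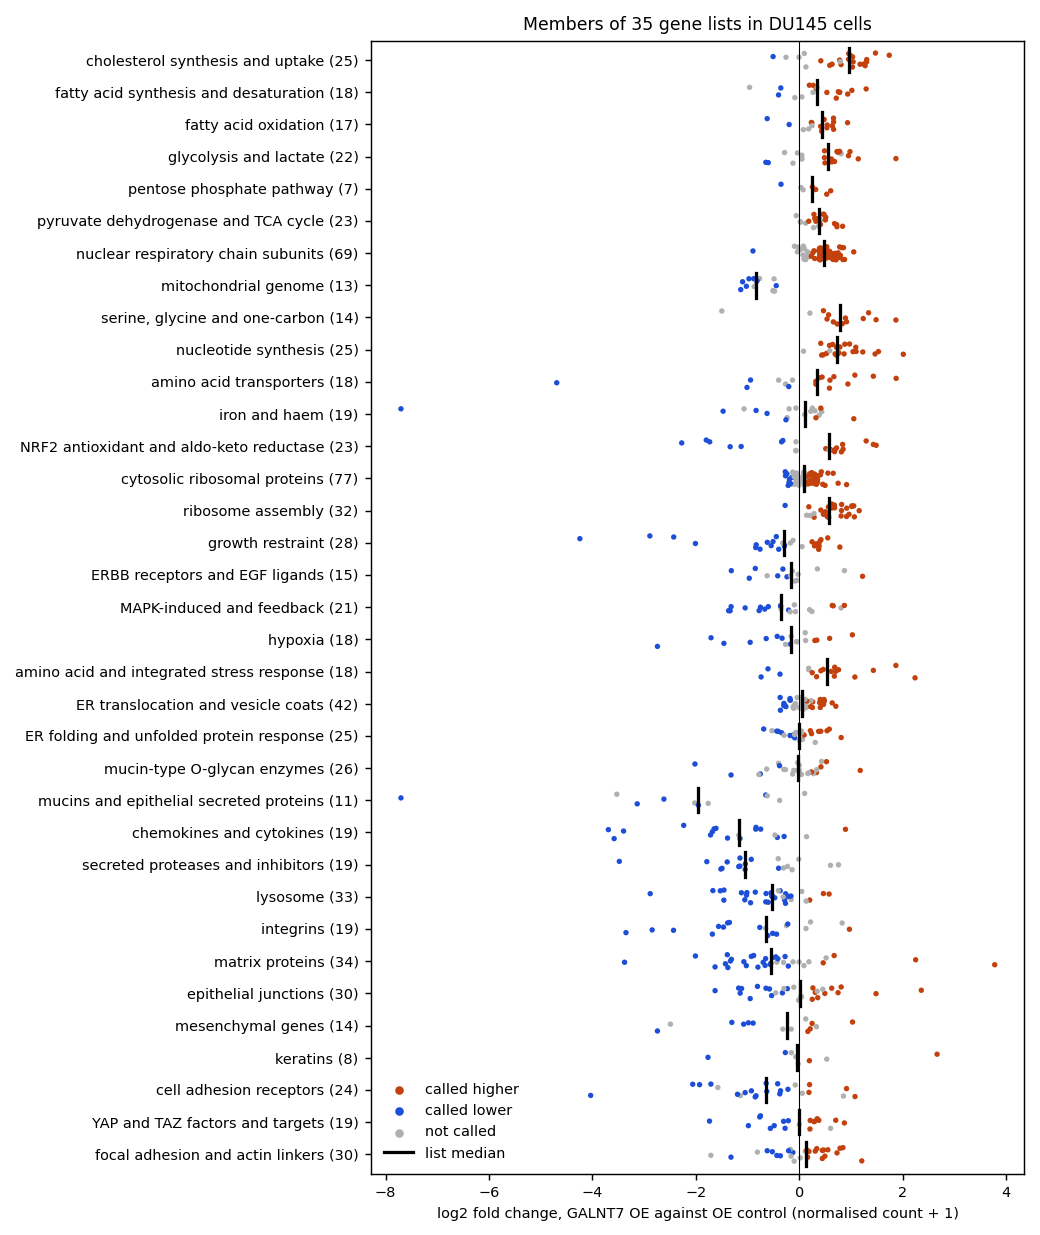
Log2 fold change, GALNT7 OE against OE control, of every tested member of the 35 lists (number tested in brackets); each point is a gene, coloured by its call at an adjusted p of 0.05, and black bars are list medians. Medians of the synthesis lists lie above 0 (0.95 for cholesterol synthesis) and those of secreted, lysosomal and surface lists below 0 (-0.53 for the lysosome).

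Transcripts of sterol synthesis were higher in GALNT7 OE cells along most of the pathway. Of 25 genes of cholesterol synthesis and uptake, 19 rose (76.0%, against 22.9% of all genes) and 1 fell, with a median log2 fold change of 0.95. The changes ran from an early step, HMGCS1 (1.27), through IDI1 (1.47), which isomerises the isoprenoid unit, to SQLE (1.30), the first oxygen-requiring step. INSIG1, which retains the sterol-sensing complex in the endoplasmic reticulum and is itself a target of that sensor, had 795, 674 and 777 normalised counts in the OE control and 2395, 2505 and 2578 in GALNT7 OE. The groups were far apart and the log2 fold change was 1.74 (standard error 0.0787, limma adjusted p=1.04e-05). TM7SF2, a sterol reductase, was the member that fell (-0.51). SREBF2, the transcription factor of the pathway, did not pass (0.10, adjusted p=0.287), nor did LSS (-0.26), which closes the sterol rings.

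Fatty acid genes moved in the same direction but less uniformly. Of 18 genes of synthesis and desaturation, 11 rose and 2 fell (median 0.34). ME1, the cytosolic malic enzyme that supplies NADPH, rose from 867 ± 22.8 to 2125 ± 111 normalised counts (SD, n=3), and the desaturases SCD (0.93), FADS1 (0.77) and FADS2 (0.78) rose with it. FASN, the fatty acid synthase, was 5410, 6535 and 6483 in the OE control and 11301, 11556 and 7740 in GALNT7 OE, so that the third GALNT7 OE library stood nearer to the controls than the other two. On the breakdown side, 12 of 17 genes of fatty acid oxidation also rose and 2 fell (median 0.43), among them CPT1A (0.66), which admits fatty acids to mitochondria, and HADHA (0.66), while the short-chain acyl-CoA dehydrogenase ACADS (-0.62) fell.

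Glycolytic transcripts rose at most enzymes of the main trunk, while those of glucose entry were mixed and that of the lactate exporter SLC16A3 fell. 13 of 22 genes rose and 2 fell, and the list went from 1.16% of all normalised counts in the controls to 1.77% in GALNT7 OE (means of 3). GAPDH, often taken as a stable reference, had 40817, 40805 and 40484 normalised counts in the OE control and 91033, 87525 and 90355 in GALNT7 OE. Its log2 fold change was 1.14 (standard error 0.0231, limma adjusted p=8.49e-07), and GPI (0.95), PGK1 (0.78), LDHB (0.75) and LDHA (0.73) rose too. Of the glucose transporters, SLC2A3 rose from a low level, 23.9, 11.2 and 15.1 normalised counts in the OE control and 52.1, 61.0 and 71.3 in GALNT7 OE, and its log2 fold change of 1.87 was the highest of the list. The common transporter SLC2A1 did not pass (0.05, adjusted p=0.640). HK2, a hexokinase that traps glucose in the cell, passed (0.98, adjusted p=0.0406) but lost the call without any 1 control library and without GALNT7 OE replicate 2 or 3 (0.71 to 1.12, adjusted p of 0.0535 to 0.114). The lactate exporter SLC16A3 fell (-0.60), as did ENO2 (-0.65), the neuronal form of enolase, whereas ENO1 rose (0.49). In the pentose phosphate pathway 4 of 7 genes rose and 1 fell, PGLS (-0.36).

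Transcripts of mitochondrial metabolism separated by genome. Of 23 nuclear genes of pyruvate dehydrogenase and the TCA cycle, 16 rose and 0 fell (median 0.37), led by DLAT (0.84), a core subunit of pyruvate dehydrogenase, MDH2 (0.73) and FH (0.72). Of 69 nuclear subunits of the respiratory chain and ATP synthase, 54 rose (78.3%) and 1 fell. The member that fell was NDUFB7 of complex I, with 688, 745 and 833 normalised counts in the OE control and 489, 369 and 365 in GALNT7 OE. ATP5MC1 of ATP synthase rose most (1.05), and UQCRFS1, the iron-sulphur protein of complex III, rose by 0.87.

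None of the 13 subunits encoded in the mitochondrial genome was called higher and 7 were called lower. MT-CO1, the catalytic subunit of cytochrome oxidase, had 198935, 197044 and 244085 normalised counts in the OE control and 105211, 73349 and 126461 in GALNT7 OE. All 3 GALNT7 OE libraries were below the controls, with the second lowest (log2 fold change -1.10, limma adjusted p=0.00374). For MT-ND4 the values were 100800, 98819 and 121832 against 89540, 43618 and 114339, where the third GALNT7 OE library overlapped the controls and the difference did not pass (adjusted p=0.278). Together the 13 transcripts took 3.74, 3.68 and 4.46% of all normalised counts in the OE control and 2.42, 1.39 and 2.95% in GALNT7 OE. The number called lower fell to 2 without any 1 control library, to 3 without GALNT7 OE replicate 1, and was 7 without replicate 2 and 10 without replicate 3.

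**Figure D2:**
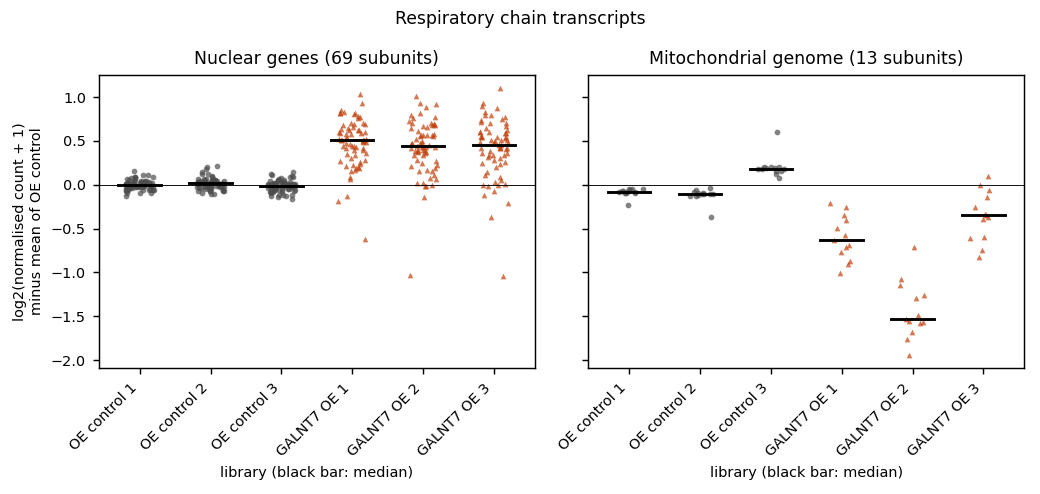
Log2(normalised count + 1) of respiratory chain subunits in each library, minus the mean of the OE control libraries; points are genes and black bars medians. Medians of the 69 nuclear genes were 0.51, 0.44 and 0.45 in the GALNT7 OE libraries, and those of the 13 genes of the mitochondrial genome -0.63, -1.53 and -0.35.

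Genes of serine synthesis and one-carbon metabolism were higher at nearly every step, and those of amino acid transporters went in both directions. In the serine, glycine and one-carbon list 12 of 14 genes rose and 0 fell (median 0.78), and its share of all counts went from 0.0976% to 0.228%. PSAT1, the transaminase of serine synthesis, had 4794, 4747 and 4714 normalised counts in the OE control and 17073, 17548 and 17374 in GALNT7 OE. Both groups were tight and did not overlap (log2 fold change 1.87, standard error 0.0312, limma adjusted p=4.99e-07). PHGDH, the first enzyme of the pathway, rose by 1.34 and PSPH, the last, by 0.47. MTHFD2 (1.48) and SHMT2 (0.83) of mitochondrial folate metabolism, and GLDC (1.24) of glycine cleavage, rose as well.

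Of 18 amino acid transporters, 11 rose and 4 fell. SLC7A5, which carries leucine and other large neutral amino acids, had 3343, 3442 and 3035 normalised counts in the OE control and 12502, 11779 and 11612 in GALNT7 OE. No library of one group came near the other (log2 fold change 1.87, limma adjusted p=3.22e-06). Its partner chain SLC3A2 rose by 0.94, the cystine transporter SLC7A11 by 1.43 and the glutamine transporter SLC1A5 by 1.07. Those that fell included SLC6A14 (-4.69, at most 78.7 normalised counts), SLC43A2 (-0.94) and SLC38A2 (-0.20).

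The same amino acid genes belong to the integrated stress response, in which reduced translation initiation raises the factor ATF4. 13 of 18 genes of this list rose and 3 fell (median 0.54), with PSAT1 and SLC7A11 counted here again. ASNS, asparagine synthetase, had 949.7, 998 and 943 normalised counts in the OE control and 4277, 4561 and 4808 in GALNT7 OE, and its log2 fold change of 2.24 (limma adjusted p=2.61e-06) was the highest of the list. ATF4 itself rose by 0.46, its partner CEBPG by 0.62, and CHAC1 (1.07) and TRIB3 (0.76) rose too. The 3 that fell were CEBPB (-0.74), NUPR1 (-0.61) and VLDLR (-0.37).

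Since the promoters of such genes are known to carry amino acid response elements, the RefSeq promoter sequences (GRCh38.p14, 250 bases before to 50 after a transcription start, 1 promoter per gene, 27305 in all) were searched on both strands after the values had been seen. The letters TGATGNAA were found in 3.67% of all promoters. They were in 3 of the 15 stress response promoters at hand (ATF3, ASNS and CHAC1) and 1 of 10 serine and one-carbon promoters (MTHFD1L). Among amino acid transporters, 4 of 15 promoters held them (SLC1A3, SLC3A2, SLC7A1 and SLC38A1). Of the genes with a match, SLC1A3 was called lower (-1.01) and the others higher. The ASNS match is shown because that gene had the highest change, with the match in capitals and 40 bases on each side (chr7:97872429-97872516, minus strand, on which the sequence is read).
ASNS: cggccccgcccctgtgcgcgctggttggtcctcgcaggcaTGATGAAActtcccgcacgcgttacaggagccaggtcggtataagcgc
For sterols, the letters TCACNCCAC of a sterol regulatory element were found in 1 of 18 cholesterol promoters (SREBF2, which was not called) and in 0 of 17 fatty acid synthesis promoters, against 1.15% of all promoters. These matches describe letters only. Among list genes, each pattern was counted only in the lists named with it, so that promoters holding more than 1 pattern were not counted.

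**Figure D3:**
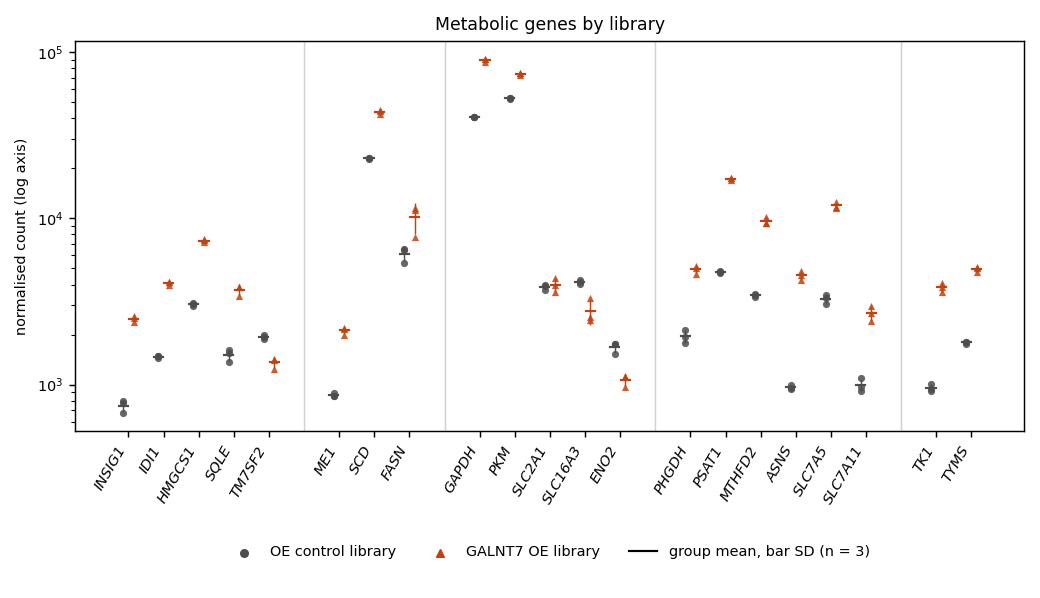
Normalised counts (log axis) of metabolic genes in each library, OE control as circles and GALNT7 OE as triangles, with group means and SD bars (n=3); grey lines part sterol, fatty acid, glycolytic, amino acid and nucleotide genes. GALNT7 OE lies above the control for PSAT1, ASNS and SLC7A5 and below it for TM7SF2, SLC16A3 and ENO2, while SLC2A1 overlaps.

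Transcripts of nucleotide synthesis rose for nearly every enzyme measured. 23 of 25 genes rose and none fell (median 0.73). TK1, the thymidine kinase of the salvage route, had 1009, 941 and 912 normalised counts in the OE control and 4073, 3866 and 3599 in GALNT7 OE, with a log2 fold change of 2.01 (limma adjusted p=4.01e-06). The ribonucleotide reductase subunits RRM2 (1.53) and RRM1 (1.23), and TYMS (1.46), which makes thymidylate, also rose. So did PAICS (1.10) of purine synthesis and CTPS1 (1.04) of CTP synthesis.

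Iron and redox genes did not move as blocks. In the iron and haem list 3 of 19 genes rose and 5 fell (15.8% higher and 26.3% lower, near the 22.9% and 20.5% of all genes). The ferritin chains parted, with FTH1 lower (-0.62) and FTL higher (0.41). ACO1, the iron-sensing cytosolic aconitase, fell by 1.47 and FECH, the last enzyme of haem synthesis, rose by 1.05. LCN2, a secreted protein that binds bacterial iron carriers, had 6988, 6796 and 7119 normalised counts in the OE control and 36.1, 36.0 and 26.2 in GALNT7 OE. The groups stood far apart, and the log2 fold change was -7.70 (limma adjusted p=5.08e-07).

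Among 23 genes of the NRF2 antioxidant group, 12 rose and 7 fell (52.2% higher and 30.4% lower, against 22.9% and 20.5% of all genes). The glutathione synthesis subunit GCLM rose (1.49) while its catalytic partner GCLC fell (-0.34). NQO1 (0.72), TXN (0.85) and GSR (0.68) rose. The efflux pump ABCC3 fell from 14158 ± 480.2 to 4071 ± 276 normalised counts (SD, n=3), and the aldo-keto reductases AKR1B1 (-1.13), AKR1C1 (-1.73), AKR1C2 (-2.27) and AKR1C3 (-1.34) all fell. AKR1C genes are near-identical, so that reads could be split between them. NFE2L2 (-0.07), which encodes NRF2, and its partner KEAP1 (-0.07) did not pass.

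Growth state was next read beyond the cell cycle itself. MKI67, the proliferation marker, had 2640, 2966 and 3476 normalised counts in the OE control and 9955, 13902 and 10613 in GALNT7 OE (log2 fold change 1.92, limma adjusted p=9.53e-05). Ribosome assembly genes rose, with 27 of 32 higher and 1 lower (median 0.57). DKC1 (1.16), which modifies ribosomal RNA, the nucleolar proteins FBL (1.02), NCL (0.81) and NPM1 (0.91), and GNL3 (1.05) rose. The member that fell was MYC, a driver of ribosome synthesis, with 5138, 4772 and 5094 normalised counts in the OE control and 4424, 3969 and 4009 in GALNT7 OE. The structural proteins of the ribosome changed less: of 77, 35 rose and 8 fell, between 0.91 for RPSA and -0.27 for RPL13, with a median of 0.09. With the libraries brought to a common 75th percentile, which lowers every log2 fold change by about 0.097, this median would lie near 0, and 21 of the genes would be called lower.

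Genes known to restrain growth moved in both directions. Of 28 members 14 fell and 10 rose, and the larger changes were downward. TXNIP, which binds thioredoxin and limits glucose uptake, had 8265, 8165 and 8145 normalised counts in the OE control and 442, 410.3 and 443 in GALNT7 OE. Its change of -4.24 on the log2 scale (standard error 0.0529, limma adjusted p=1.09e-07) stood beside that of its relative ARRDC4 (-2.01). CDKN1C, which encodes the CDK inhibitor p57, fell from 194 ± 14.4 to 35.3 ± 3.41 normalised counts (SD, n=3). Other CDK inhibitor genes went the other way: CDKN2C (0.78), CDKN1A (0.55), which encodes p21, and CDKN2A (0.37) rose. The antiproliferative genes BTG1 (-0.83) and BTG2 (-0.76) and the pocket protein gene RBL2 (-0.55) fell. FOXO3 (-0.40) and FOXO4 (-0.62) fell, and FOXO1 fell from 374, 2138 and 2544 to 163, 183 and 165 normalised counts, with the first control library standing apart from the other two. Leaving out single libraries gave values between -3.77 and -2.39 for FOXO1 on the log2 scale.

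Among upstream growth signals more genes fell than rose. Of 15 ERBB receptor and EGF ligand genes 6 fell, 1 rose and 8 were not called. The one that rose was the ligand gene NRG1, at 17.1 to 29.7 normalised counts in the OE control and 33.1 to 74.5 in GALNT7 OE (1.22, limma adjusted p=0.0305), a call lost without control replicate 1 or 3 or GALNT7 OE replicate 2 or 3 (adjusted p of 0.0752 to 0.0930). EGFR, the receptor of EGF, had 13034, 12743 and 13051 normalised counts in the OE control and 6272, 7202 and 6398 in GALNT7 OE, a log2 fold change of -0.97 (limma adjusted p=3.01e-05). ERBB2 (-0.32), the ligand TGFA (-0.85) and LRIG1 (-1.32), a negative regulator of these receptors, fell. In the list of MAPK-induced and feedback genes 11 of 21 fell and 3 rose. The phosphatases DUSP4 (-1.37) and DUSP6 (-1.05), the AP-1 genes JUN (-1.32), JUNB (-1.34) and FOS (-0.78), and the inhibitor SPRY2 (-0.60) fell. FOSL1, another AP-1 gene, rose (0.87), together with ETV4 (0.65) and EPHA2 (0.64).

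**Figure D4:**
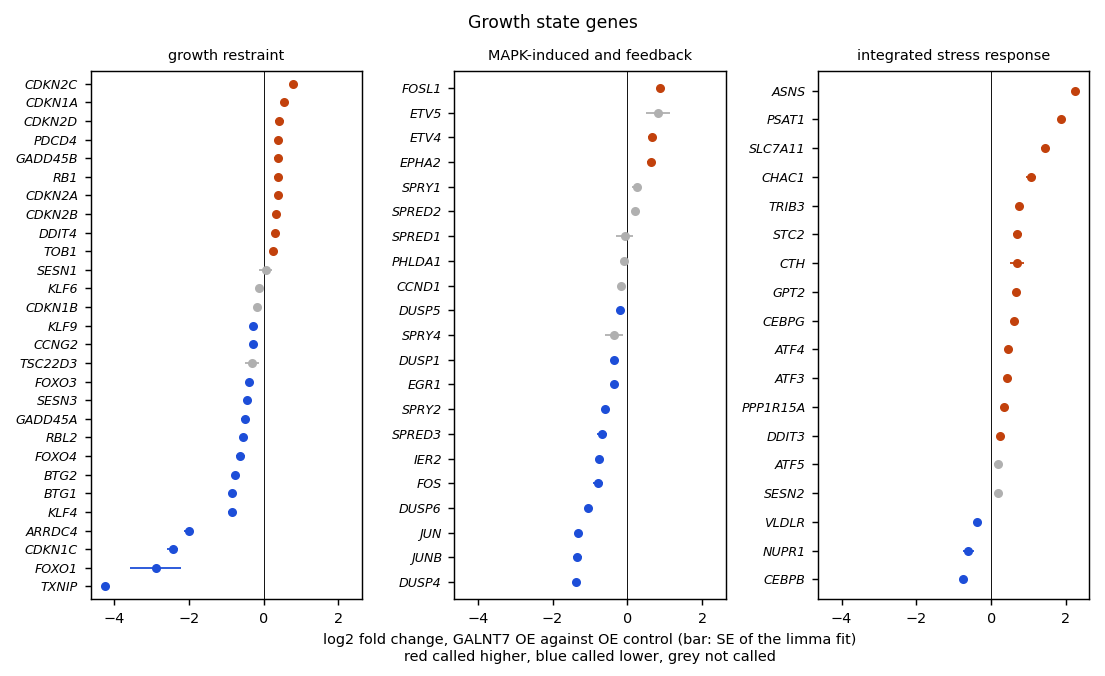
Log2 fold change with the standard error of the limma fit for the 28 growth restraint genes, 21 MAPK-induced and feedback genes and 18 integrated stress response genes tested; red is called higher, blue called lower and grey not called. TXNIP (-4.24) and DUSP4 (-1.37) are lowest in their panels and ASNS (2.24) is highest in its own.

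Hypoxia genes leaned lower, with 8 of 18 lower (44.4%, against 20.5% of all genes) and 4 higher (22.2%, against 22.9%). LOX, which cross-links collagen and elastin, had 1196, 1128 and 1187 normalised counts in the OE control and 156, 185 and 181 in GALNT7 OE (log2 fold change -2.74, limma adjusted p=3.92e-06). NDRG1 (-1.71), EPAS1 (-1.46), which encodes HIF-2 alpha, and the angiogenic factor VEGFA (-0.95) fell. PDK1 (1.02), which restrains pyruvate dehydrogenase, and BNIP3 (0.30) rose.

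The machinery of secretion held genes of both directions and small changes. Of 42 genes of ER translocation and vesicle coats, 13 rose (8 at a common 75th percentile) and 8 fell with a median of 0.05. In shares, 31.0% were higher and 19.0% lower, against 22.9% and 20.5% of all genes. SEC23A, of the COPII coat that leaves the endoplasmic reticulum, rose (0.71), while COPA, of the COPI coat, fell (-0.37). In ER folding and the unfolded protein response 8 of 25 rose and 7 fell (32.0% higher and 28.0% lower, not far from the shares of all genes). The chaperone HSPA5 did not pass (22138, 22067 and 21884 against 22644, 23172 and 23126 normalised counts, adjusted p=0.0921). MANF (0.81) and HYOU1 (0.58) rose, and ERN1 (-0.69), which encodes the stress sensor IRE1, fell.

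Of 26 mucin-type O-glycan enzymes, 5 rose, GALNT7 included, and 4 fell (19.2% higher and 15.4% lower, both under the shares of all genes). Among the other members of the GALNT family, GALNT10 (0.52), GALNT1 (0.42) and GALNT2 (0.33) rose. GALNT16 fell, with 316, 323 and 292 normalised counts in the OE control and 40.1, 80.4 and 134 in GALNT7 OE (limma adjusted p=0.00592). C1GALT1, which extends the first GalNAc to core 1, did not pass (0.16, adjusted p=0.0547). The core 1 extending enzyme B3GNT3 fell (-1.32).

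Transcripts of secreted products were lower across several families. Of 11 mucins and epithelial secreted proteins, 5 fell and none rose, and another 16 of the 27 on that list were under the minimum count. Besides LCN2, these were the protease inhibitors SLPI (-1.95) and PI3 (-3.14), WFDC2 (-2.62) and clusterin, CLU (-0.65). MUC1, the membrane mucin, had 1042, 1185 and 626 normalised counts in the OE control and 604, 1165 and 496 in GALNT7 OE, groups that overlapped (adjusted p=0.431).

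Chemokines and cytokines were lower in 15 of 19 cases (78.9%) and higher in 1, with 9 more under the minimum count. CXCL1, which attracts neutrophils, had 1674, 1620 and 1622 normalised counts in the OE control and 115, 126 and 137 in GALNT7 OE, a log2 fold change of -3.69 (limma adjusted p=1.63e-06). CXCL8, a ligand of the same receptor family, had 4195, 4325 and 4198 against 1265, 1203 and 1403. The member that rose was CXCL5, a low-count relative, with 24.8, 14.3 and 20.2 against 32.1, 40.7 and 37.8 (0.89, adjusted p=0.0328). This call was lost without control replicate 2 or 3 or GALNT7 OE replicate 2 or 3 (adjusted p of 0.0699 to 0.0979). The remaining calls included CCL5 (-3.40), which attracts T cells, CCL20 (-2.24), IL6 (-1.65), LIF (-0.84) and the macrophage growth factor CSF1 (-0.75), while IL18 did not pass (0.14).

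The NF-kB core letters GGANTTTCC, searched in the same way, were found in 8 of 14 chemokine and cytokine promoters (CXCL1, CXCL2, CXCL3, CXCL5, CXCL6, CXCL8, IL6 and IL32), 1 of 20 adhesion receptor promoters (ICAM1) and 0 of 14 iron and haem promoters, against 1.64% of all promoters. Windows of CXCL1 (chr4:73869275-73869363, plus strand), CXCL8 (chr4:73740438-73740526, plus strand), IL6 (chr7:22727088-22727176, plus strand) and CXCL5 (chr4:73998719-73998807, minus strand) are shown, each with the match in capitals and 40 bases on either side, since the first 3 genes fell and CXCL5 rose.
CXCL1: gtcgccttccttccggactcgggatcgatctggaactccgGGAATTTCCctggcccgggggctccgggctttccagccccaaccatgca
CXCL8: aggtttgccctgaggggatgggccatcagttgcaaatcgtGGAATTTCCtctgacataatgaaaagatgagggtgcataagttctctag
IL6: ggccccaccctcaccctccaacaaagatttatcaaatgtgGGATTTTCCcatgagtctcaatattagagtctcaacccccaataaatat
CXCL5: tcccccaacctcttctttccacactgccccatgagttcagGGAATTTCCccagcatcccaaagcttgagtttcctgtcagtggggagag
CXCL1, CXCL8 and CXCL5 hold identical letters at the match, at positions -78, -91 and -90 from the transcription start. Whether these letters bear on the direction of change was not tested.

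Secreted proteases and their inhibitors fell together, 12 of 19 with none higher, while 13 more were under the minimum count. MMP1, an interstitial collagenase, had 1175, 1074 and 1119 normalised counts in the OE control and 90.2, 105 and 104 in GALNT7 OE (log2 fold change -3.48, limma adjusted p=2.85e-06). The membrane-bound MMP14 (-1.15) and the plasminogen activators PLAU (-0.93) and PLAT (-1.52) fell, and so did inhibitors, namely TIMP2 (-1.05), SERPINE2 (-1.15) and SPINT1 (-1.79).

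Lysosomal genes fell broadly. 25 of 33 were lower (75.8%, against 20.5% of all genes) and 3 higher, and together they took 1.52, 1.53 and 1.49% of all normalised counts in the OE control and 0.731, 0.732 and 0.729% in GALNT7 OE. PSAP, the precursor of the saposins that help break down sphingolipids, had 120363, 121787 and 119007 normalised counts in the OE control and 36843, 37689 and 38798 in GALNT7 OE. Its log2 fold change was -1.67 (standard error 0.0256, limma adjusted p=3.40e-07). The cathepsins CTSB (-1.46) and CTSD (-1.05), progranulin, GRN (-1.46), acid alpha-glucosidase, GAA (-1.53), and the membrane protein LAMP1 (-0.53) fell. Alpha-galactosidase, GLA (0.58), and PPT1 (0.47) rose, and TFEB, a transcription factor of lysosomal genes, did not pass (167, 256 and 147 against 217, 152 and 80.8 normalised counts).

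The lysosomal E-box TCACGTGA, which is its own reverse complement, was found in 5 of 22 lysosomal promoters (LAMP1, CTSA, GAA, MCOLN1 and ATP6V0D1) against 1.04% of all promoters. Of these genes MCOLN1 was not called and the other 4 fell. The window of GAA, which had the lowest log2 fold change of these genes, runs from 40 bases before its first match to the end of the second (chr17:80101464-80101556, plus strand), with both matches in capitals.
GAA: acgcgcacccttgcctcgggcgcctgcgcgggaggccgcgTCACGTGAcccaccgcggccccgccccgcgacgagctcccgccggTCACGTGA
CD68, a glycoprotein of the lysosomal membrane that also serves as a macrophage marker, had 2758, 2688 and 2580 normalised counts in the OE control and 985, 1001 and 1119 in GALNT7 OE. With it, the summed counts of the 6 immune markers went from 2653 to 2850 in the OE control to 1023 to 1153 in GALNT7 OE, while CD3E was 0 throughout. In bulk RNA, fewer cells of a type and less RNA per cell cannot be told apart.

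**Figure D5:**
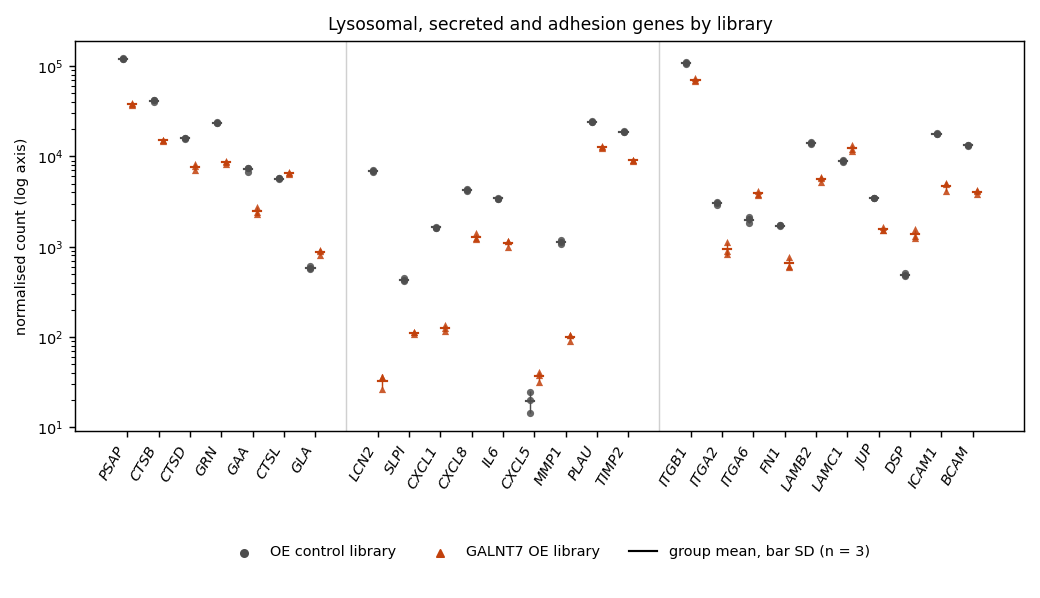
Normalised counts (log axis) of lysosomal, secreted and adhesion genes in each library, OE control as circles and GALNT7 OE as triangles, with group means and SD bars (n=3); grey lines part the 3 families. Most triangles lie below the circles, by the widest gap for LCN2, and GLA, CTSL, CXCL5, ITGA6, LAMC1 and DSP lie the other way.

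Transcripts of most integrin and matrix genes were lower. Of 19 integrin genes 13 fell and 1 rose (median -0.65). ITGB1, the beta chain shared by many integrins, had 110378, 107723 and 106111 normalised counts in the OE control and 67785, 70567 and 73848 in GALNT7 OE, a log2 fold change of -0.61 (limma adjusted p=2.64e-05). The collagen-binding chains ITGA2 (-1.68) and ITGA1 (-2.43), and ITGB3 (-1.35), ITGB8 (-2.85) and ITGB4 (-0.76), fell. ITGA6, a laminin-binding chain and partner of ITGB4, was the one that rose, with 2035, 2146 and 1813 against 3711, 3835 and 4162, and ITGA5, which binds fibronectin, did not pass (0.22).

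Of 34 matrix genes 23 fell and 4 rose. FN1, fibronectin, had 1734, 1688 and 1727 normalised counts in the OE control and 612, 771 and 603 in GALNT7 OE, and its log2 fold change was -1.38 (limma adjusted p=8.36e-05). The laminin chains LAMB2 (-1.33), LAMB3 (-0.93) and LAMA3 (-0.66) fell while LAMC1 rose (0.46). Collagen VI, COL6A1 (-1.31) and COL6A2 (-1.07), the perlecan gene HSPG2 (-0.80) and AGRN (-0.88) fell, and COL17A1 (0.67), a hemidesmosome collagen, rose. The other 2 that rose had low counts: the basement membrane collagen COL4A5, with 31.5, 18.4 and 15.1 against 132, 49.0 and 163 (2.25), and osteopontin, SPP1, which was 0 in every control and at most 19.9 in GALNT7 OE. COL1A1 fell (-2.01), from 419, 287 and 296 to 154, 53.6 and 64.0 normalised counts. The other fibroblast markers were low, COL1A2, COL3A1, DCN, LUM, PDGFRA and PDGFRB at most 16.2 normalised counts, and the summed counts of the 7 fibroblast markers were 306 to 448 in the OE control and 73.9 to 179 in GALNT7 OE. COL1A1 made up most of each sum, and whether any fibroblasts were present was not tested.

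Cell to cell junction genes moved in both directions, with a median of 0.00. Of 30 genes 11 were lower (36.7%, against 20.5% of all genes) and 10 higher (33.3%, against 22.9%). JUP, plakoglobin of desmosomes and adherens junctions, had 3440, 3453 and 3497 normalised counts in the OE control and 1667, 1517 and 1518 in GALNT7 OE. In contrast DSP, the desmoplakin of the same desmosomes, had 471, 516 and 483 against 1250, 1568 and 1310, so that neither gene's groups overlapped (-1.14 and 1.48, limma adjusted p=1.31e-05 and 5.58e-05). E-cadherin, CDH1, fell (-0.58), as did the tight junction claudins CLDN1 (-0.81) and CLDN4 (-1.12), and CLDN7 (0.75), EPCAM (0.62) and the epithelial splicing factors ESRP1 (2.36) and ESRP2 (0.81) rose. Mesenchymal genes gave no common direction, 5 lower (35.7%, against 20.5% of all genes) and 4 higher (28.6%, against 22.9%) of 14. VIM rose slightly (0.25), ZEB1 did not pass (0.12), and ZEB2 (-0.89), SNAI2 (-1.31) and TGFB2 (-0.99) fell. Of 8 keratins 2 rose and 2 fell, close to the shares of all genes. Among them KRT4 (2.66) rose and KRT81 (-1.77) and KRT7 (-0.27) fell, while KRT8 (-0.07) and KRT18 (-0.02) did not pass.

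Other adhesion receptors fell in 15 of 24 cases and rose in 4. ICAM1, which binds leukocyte integrins, had 18414, 17729 and 17686 normalised counts in the OE control and 4999, 5090 and 4106 in GALNT7 OE (log2 fold change -1.93, limma adjusted p=8.59e-06). LGALS3BP, the secreted galectin 3 binding protein, fell from 2705, 2615 and 2591 normalised counts to 187, 120.1 and 181. The laminin receptor BCAM (-1.71), the proteoglycan SDC4 (-1.20), CD44 (-0.63) and CD151 (-0.93) also fell. Galectin 1, LGALS1, rose (0.91).

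Inside the cell, focal adhesion and actin linker genes were more often higher, 14 of 30, than lower, 7, but at a common 75th percentile 10 were higher and 11 lower. CAV1, the coat protein of caveolae, had 5166, 5181 and 5031 normalised counts in the OE control and 12136, 11424 and 11937 in GALNT7 OE, a log2 fold change of 1.21 (limma adjusted p=3.22e-06). Paxillin, PXN (0.55), the tropomyosin TPM4 (0.79), kindlin-2, FERMT2 (0.73), and actin, ACTB (0.44), rose. Vinculin, VCL (-0.52), TNS3 (-0.62) and TPM2 (-1.32) fell. Of 19 YAP and TAZ factors and targets 8 rose (42.1%, against 22.9% of all genes) and 9 fell (47.4%, against 20.5%). The classic targets parted, ANKRD1 higher (0.38) and CCN1 (-0.28) and CCN2 (-0.21) lower, and F3, tissue factor, which starts coagulation, fell (-1.74).

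Outside the lists, the 15 highest and 15 lowest well-expressed protein-coding genes were drawn by size of change. The highest included genes known for DNA repair or mitosis, such as NUF2 (2.70), EXO1 (2.38) and KIF15 (2.34). FAM72B, FAM72C and FAM72D were also among them but are near-identical copies, so that their reads could be split. S100A10, a calcium-binding partner of annexin A2, rose from 1488 ± 22.1 to 6874 ± 73.5 normalised counts (SD, n=3, log2 fold change 2.21, limma adjusted p=5.81e-07). The lowest held the acute phase gene SAA2 (-8.24), whose reads could be shared with its close copy SAA1, and the complement genes C3 (-5.48), C1S (-3.75) and C1R (-3.21). CEMIP, which promotes breakdown of hyaluronan, had 1559, 2039 and 2047 normalised counts in the OE control and 59.1, 101 and 67.1 in GALNT7 OE. SOD2, the mitochondrial superoxide dismutase, had 42171, 41338 and 40962 against 3444, 3439 and 3524, a log2 fold change of -3.58.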

How the data were processed

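Total RNA from DU145 cells was extracted with RNeasy columns and sequenced from TruSeq Stranded mRNA libraries. Per the labels and methods, the authors estimated counts with Salmon and normalised them with DESeq2, and deposited 1 table of normalised counts per experiment, a signal in reads scaled by size factors. The submitters' processing notes also name FastQC, R 3.5.3 and hg38, while the annotation release was not given in the sources used here. Of the gene IDs 94.4% were found in GENCODE 29. The table of the CWR22RV1 knockdown experiment, the other 6 samples, was not used here, and there were 0 value columns outside the 6 libraries.

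Dividing by the value of 1 read in each library gave whole reads for 100% of values (within 0.01 reads), and with them depths of 21628718 to 24356910 reads. Genes averaging 5 or more normalised counts were fitted with limma 3.58.1 (R 4.3.3, lmFit and eBayes with trend) on log2(normalised count + 1), GALNT7 OE against OE control over the 6 libraries, and p-values were adjusted by Benjamini-Hochberg over all 18705 genes. A call is an adjusted p under 0.05, and a strong one also has a log2 fold change of at least 1 in size. Fold changes are on the log2(value + 1) scale, which understates those of low genes. All tests were two-sided. The fit was tested on simulated data.

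The members and lists were chosen with earlier results of these data known, and 13 genes stand in more than 1 list. From each list a rule drew up to 4 members called in each direction. These had the largest change among members with a mean of at least 100 and no overlap between the groups. Not all of those drawn were named. Left out were, for example, VTN (-3.38), TNFSF10 (-3.58) and ITGB2 (-1.56), which fell, and ICAM3 (1.08) and S100A4 (1.03), which rose. Members whose role the account needed were named as well, some with smaller changes, and were chosen after their values were seen. Outside the lists the rule took 15 protein-coding genes each way with a mean of at least 500. Alternatives were pseudocounts of 0.5 and 5, minimum means of 1 and 20, the 75th percentile, TMM factors, eBayes without trend, a replicate block, an adjusted p of 0.01, each library left out, and edgeR 4.0.16 and DESeq2 1.42.0 on the recovered reads. Since nothing says how the replicates of a group were separated, p-values measure the spread between these libraries, which may be technical. Promoter sequences came from RefSeq.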

Additional observations from a re-analysis of the deposited data

How the results depend on the processing

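GALNT7 kept its direction and call in every alternative, and its log2 fold change ran from 1.13 to 1.24 with each library left out. The number of genes called was 5303 at an adjusted p of 0.01 (2910 higher and 2393 lower) against 8132 at 0.05, 8042 by edgeR, 8048 by DESeq2 and 6757 to 7629 with a library left out (3636 to 3991 higher and 3059 to 3638 lower). At a common 75th percentile 3380 genes were higher and 4737 lower, with the median log2 fold change shifted by -0.10. In its leading direction, the count of 6 of the 35 lists moved by more than 1.5 times. Subunits of the mitochondrial genome called lower, 7 here, numbered 2 without trend and at an adjusted p of 0.01, 4 by edgeR, and 2 to 10 with a library left out. Genes called higher numbered 8 for ER translocation at the 75th percentile, 1 for keratins there and without trend, 9 for focal adhesion without trend and at an adjusted p of 0.01, and 5 for ER folding at 0.01, where 5 hypoxia genes were lower. Counts in the other direction moved as much in 14 lists, 5 of them at the 75th percentile. The cause of these shifts was not tested. Of 311 genes followed through 16 settings, which leave out the threshold of 0.01, 16 lost their call in at least 1 and 2 gained one, C1GALT1 with a minimum mean of 20 (adjusted p=0.0464) and NFE2L2 at the 75th percentile (adjusted p=0.0465). At an adjusted p of 0.01, 21 of the 296 called among them would not pass, FOXO1 included (adjusted p=0.0127). CXCL5 was among those lost at 0.05, also under the replicate block (adjusted p=0.0738) and by DESeq2 (adjusted p=0.0927). Among genes that were not called, the sign turned at the 75th percentile for HSPA5 (-0.038), SLC2A1 (-0.052) and SREBF2 (-0.0037), and with 1 library left out for SLC2A1 (-0.024 to 0.12), KRT8 (-0.12 to 0.0086) and KRT18 (-0.045 to 0.015). Replicates share numbers between the groups, but the lowest correlation of same-numbered deviations was 0.032, so that the numbers were not taken to pair the libraries, although each library correlated best with its own number. With the replicate block 7405 genes were called, 3913 higher and 3492 lower. Counts of low genes limit the precision of their fold changes.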

Other observations

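A small set of genes varied widely between libraries of 1 group. Of 12314 genes averaging 100 or more normalised counts, 83 spanned 4-fold or more among the OE control libraries and 68 among the GALNT7 OE libraries, and the library that stood apart was replicate 1, 2 or 3 in 25, 31 and 27 of the former and in 28, 22 and 18 of the latter. WNT3, a secreted growth factor, had 320, 305 and 0 normalised counts in the OE control and 315, 232 and 323 in GALNT7 OE. RUNX2, a transcription factor of bone that prostate cancer cells can express, had 78.3, 443 and 73.6 against 48.1, 53.6 and 51.4, so that 1 control library carried most of the difference. WNT3 and RUNX2 were chosen after their values were seen, and neither passed the test (limma adjusted p=0.353 and 0.127).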
